A study of Mus musculus with 8 samples.

Results

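The proteasome genes were taken as all genes whose symbol begins with Psm, a letter from a to g and a digit. The rule found 50 of the 17264 genes in the tables, of which 48 encode known proteasome proteins and 2, Psmc3ip and Psme2b, match by symbol only. The 48 genes fell into 8 core α genes, 8 core β genes, 3 immunoproteasome genes, 17 genes of the regulatory particle, 5 activators or inhibitors and 7 assembly factors.

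The proteasome is the protease that degrades ubiquitin-tagged proteins. Its core particle is a barrel of α rings around β rings, and the active sites lie on the β1, β2 and β5 subunits inside the barrel. The regulatory particle caps the core, with a lid that deubiquitinates substrates and a base whose ubiquitin receptors bind them and whose ATPases unfold them. Interferon-γ induces the immunosubunits Psmb9, Psmb10 and Psmb8, which take the places of Psmb6, Psmb7 and Psmb5 during assembly and shift the peptides made towards those loaded on MHC class I. In brown and beige fat, proteasome supply through the transcription factor Nfe2l1 is known to be needed during cold adaptation.

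Inguinal white adipose tissue (iWAT), a subcutaneous fat depot, came from male C57BL/6 mice 9 weeks old that had been kept at 4 °C for 7 days. Y1cKO mice carried the floxed Ythdf1 allele with the adipocyte Cre driver Adipoq-Cre, and Y1CTL mice carried the floxed allele without Cre. YTHDF1 is a reader of N6-methyladenosine that acts on mRNA translation. Each genotype had 2 RNA-seq and 2 Ribo-seq libraries, 8 in all, made from lysed whole tissue in which cells other than adipocytes keep Ythdf1. The labels do not say whether the libraries of a group came from separate mice, and the p-values therefore cover only the variation among these libraries. In bulk tissue, fewer cells of a type and less RNA per cell cannot be told apart.

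The RNA-seq libraries held 12211351 and 16429015 reads in Y1cKO, against 3958284 and 4963613 in Y1CTL, and the Ribo-seq libraries held 7364523 to 11862838. Values are RPKM, reads per kilobase scaled to library depth, over the transcript in RNA-seq and over the coding sequence in Ribo-seq. Ythdf1 (ENSMUSG00000038848) had 7.17 and 7.98 RPKM in the Y1cKO RNA-seq libraries, against 8.01 and 11.5 in the Y1CTL libraries, and its fold change did not pass the test (log2 fold change -0.33, adjusted p = 0.587, limma). These values cover the whole transcript, so they are no direct check of the floxed exon. Adipocyte markers were present in all 8 libraries, with Adipoq at 908 and 846 RPKM in the Y1cKO RNA-seq libraries, against 655 and 264 RPKM in Y1CTL, and from 2840 to 4113 RPKM in Ribo-seq. A pair of RNA-seq libraries stood apart. Summed T cell markers (10 of the 12 listed were found) reached 3.47 and 3.26 RPKM in the Y1cKO RNA-seq libraries. They reached 1.86 RPKM in Y1CTL replicate 1 and 137 RPKM in Y1CTL replicate 2, and Ccr7, Cd5, Cd3e, Cd3g and Cd2 were at 0 in Y1CTL replicate 1. Summed B cell markers (10 of the 12 listed were found) followed the same pattern. They reached 1.59 and 1.47 RPKM in Y1cKO RNA-seq, against 1.72 RPKM in Y1CTL replicate 1 and 214 RPKM in Y1CTL replicate 2. Summed skeletal muscle markers (14 of 14 found) reached 282 and 2.70 RPKM in the Y1cKO RNA-seq libraries, against 0.49 and 2.27 RPKM in the Y1CTL libraries. In Ribo-seq, summed T cell markers ranged from 537 to 559 RPKM in Y1cKO, against 425 to 528 RPKM in Y1CTL. Summed B cell markers ranged from 623 to 683 RPKM in Y1cKO Ribo-seq, against 538 to 568 RPKM in Y1CTL.

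Ribosome footprints on the proteasome genes differed little between the genotypes. Of the 48 genes, 46 averaged 0.5 RPKM or more and were tested, and their log2 fold changes (Y1cKO over Y1CTL) ran only from -0.27 for Psmd14 to 0.20 for Psme2. The median was -0.044, beside 0.0071 over all 12602 genes tested. Fold changes were positive for 11 genes (23.9%, beside 51.5% of all genes) and negative for 35. No proteasome gene passed an adjusted p of 0.05 with limma, where 0% of all genes passed, and none had an unadjusted p under 0.05, beside 1.62% of all genes higher and 1.13% lower. Both Y1cKO libraries lay above both Y1CTL libraries for 2 genes (4.35%, beside 15.4% of all genes) and below them for 14 (30.4%, beside 14.1%), and the groups overlapped for 30. None of the 46 moved by more than 0.5 on the log2 scale, as only a small part of all genes did (622 of 12602). Without Y1cKO replicate 1 the split was 19 positive to 27 negative, and leaving out Y1CTL replicate 1 or Y1cKO replicate 2 gave a median of -0.069 or -0.071.

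In RNA-seq the proteasome transcripts were mostly higher in Y1cKO, together with the transcriptome at large. Fold changes were positive for 37 of the 46 genes tested (80.4%, beside 67.2% of all genes), with a median of 0.27 beside 0.17 over 12435 genes. An unadjusted p under 0.05 was reached by 2 genes, Psmb4 and Psmd6, both higher (4.35%, beside 10.0% of all genes higher and 1.79% lower), and 0 passed the adjusted threshold, as did 0% of all genes. Both Y1cKO libraries lay above both Y1CTL libraries for 24 genes (52.2%, beside 36.9% of all genes) and below them for 4 (8.70%, beside 10.7%). When the 4 libraries were brought to the same median, which takes the median of all genes to 0.0081, the proteasome median was 0.11, with 29 genes positive and 17 negative. The groups then did not overlap for 10 genes higher (21.7%, beside 21.6% of all genes) and 7 lower (15.2%, beside 20.6%). Without Y1CTL replicate 2, the library rich in T and B cell transcripts, the median was 0.12, beside 0.17 over all genes. At an unadjusted p under 0.05, 10 genes were higher without Y1CTL replicate 1, where 17.8% of all genes were higher and 665 of 12481 passed the adjusted threshold. Without Y1CTL replicate 2, 6 were higher and 1 lower, beside 15.7% and 3.63% of all genes, and leaving out Y1cKO replicate 1 gave none, beside 1.58% and 0.623%. Adipocyte and beige fat markers also differed between these libraries. All 10 adipocyte markers were higher in Y1cKO RNA-seq (median log2 fold change 0.55, with 9 not overlapping), and 10 of 12 beige and brown adipocyte markers were lower (median -1.48, with 4 at an unadjusted p under 0.05). Their part in the proteasome values was not tested.

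Translational efficiency (TE), the footprint density divided by the transcript level, was therefore compared in a joint fit of all 8 libraries. TE changes were positive for 9 of the 46 genes (19.6%, beside 34.7% of all genes) and negative for 37. Their median was -0.33, beside -0.17 over 11792 genes. After scaling the proteasome median was -0.17, beside -0.021 over all genes, with 33 proteasome genes negative. At an unadjusted p under 0.05, 3 genes, Psmb4, Psmb5 and Psmd6, were lower (6.52%, beside 7.12% of all genes) and 0 were higher (beside 1.53%). No gene passed the adjusted threshold (0% of all genes), and limma with voom weights on the reads called 0 proteasome genes in each of the 3 comparisons. The median was -0.20 without Y1CTL replicate 2, and the count of 3 became 10 without Y1CTL replicate 1 (beside 16.6% of all genes lower), 5 when Y1CTL replicate 2 was left out (beside 9.24%), and 0 when Y1cKO replicate 1 was (beside 0.859%). The Y1cKO and Y1CTL Ribo-seq values of these genes stayed close, so the TE changes largely mirrored the RNA-seq changes. Without Y1CTL replicate 2 the TE median over all genes was -0.16, beside the -0.20 of the proteasome genes.

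**Figure D1:**
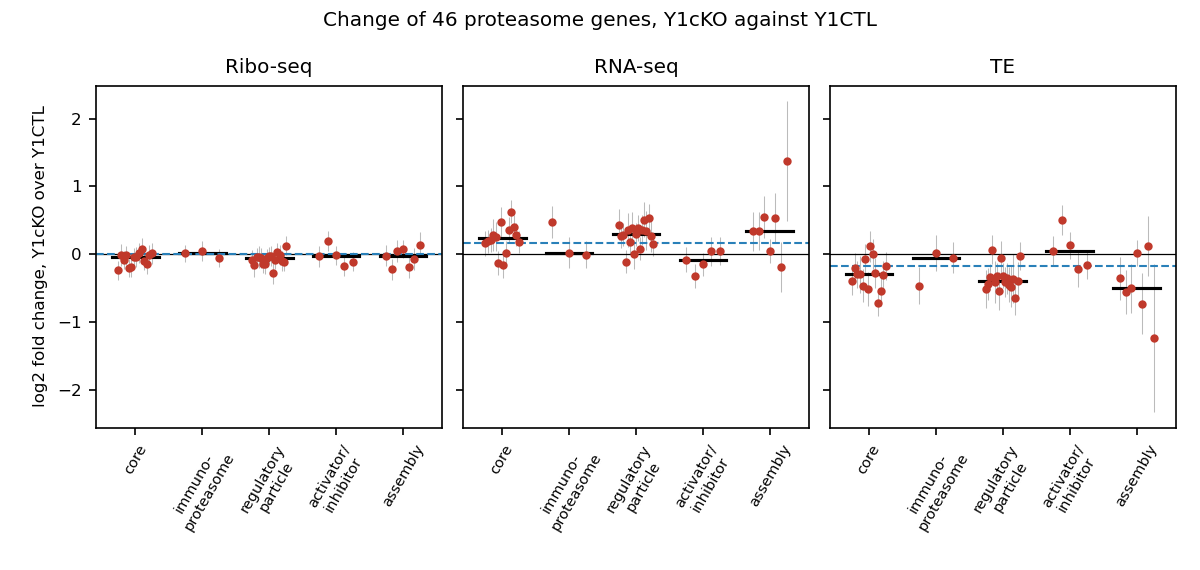
Log2 fold changes of 46 proteasome genes, Y1cKO over Y1CTL, in Ribo-seq, RNA-seq and TE (vertical axis), by class (horizontal axis). Points are genes with their limma standard error, black lines are class medians and the dashed line is the median of all genes tested. The Ribo-seq points stay between -0.27 and 0.20, while the RNA-seq medians of the core and regulatory particle lie above 0 and the TE medians below.

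The α subunits form the outer rings of the core and gate entry to it. All 7 tested α genes were slightly lower in Y1cKO footprints, with log2 fold changes from -0.24 to -0.0093, where 51.5% of all genes were higher. In RNA-seq 6 of 7 were higher (85.7%, beside 67.2% of all genes), and 5 of 7 after the scaling above. Psma1 had the lowest footprint change of the class. Psma1 had 226 and 243 RPKM in the Y1cKO Ribo-seq libraries, against 286 and 267 RPKM in the Y1CTL libraries (log2 fold change -0.24 ± 0.14, SE, unadjusted p = 0.143, limma). The groups did not overlap, yet the difference did not pass the test. Psma1 transcripts were at 76.3 and 76.8 RPKM in Y1cKO, against 73.2 and 64.1 RPKM in Y1CTL. Psma7 was the α gene with the highest RNA-seq change. It had 54.6 and 50.3 RPKM in the Y1cKO RNA-seq libraries, against 44.2 and 32.0 RPKM in Y1CTL. Psma7 footprints were at 205 and 208 RPKM in Y1cKO, against 213 and 212 RPKM in Y1CTL. Its transcript lay higher in both Y1cKO libraries and its footprints lower. Psma6, the most highly translated α subunit, had 412 and 446 RPKM in the Y1cKO Ribo-seq libraries, against 500 and 478 RPKM in the Y1CTL libraries. Psma6 was the α gene with the lowest RNA-seq change, at 53.4 and 46.0 RPKM in Y1cKO, against 54.8 and 53.4 RPKM in Y1CTL. Psma2 footprints ran from 187 to 196 RPKM in Y1cKO, inside the range of 171 to 217 RPKM in Y1CTL. The remaining α genes, Psma3, Psma4 and Psma5, had footprint means of 186, 185 and 124 RPKM over the 4 Ribo-seq libraries. Psma8, an α subunit of the testis that replaces Psma7 there, had 2 to 3 Ribo-seq reads per library and at most 11 RNA-seq reads, and was not tested.

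Among the β genes, Psmb4, a noncatalytic subunit that completes the β ring, gave the largest changes in RNA-seq and TE. Psmb4 had 51.6 and 45.1 RPKM in the Y1cKO RNA-seq libraries, against 30.3 and 31.7 RPKM in the Y1CTL libraries. Its footprints were at 234 and 234 RPKM in Y1cKO, against 250 and 249 RPKM in Y1CTL. Both Y1cKO libraries thus lay above Y1CTL in RNA-seq and below it in Ribo-seq. The RNA-seq log2 fold change was 0.63 ± 0.18 (SE, unadjusted p = 0.0123, adjusted p = 0.402, limma), and the TE change was -0.72 ± 0.19 (SE, unadjusted p = 0.00655, adjusted p = 0.563, limma). Psmb3, the most highly translated core gene, had 486 and 493 RPKM in the Y1cKO Ribo-seq libraries, against 494 and 433 RPKM in Y1CTL, with a log2 fold change of 0.082. Its transcripts were at 49.3 and 46.6 RPKM in Y1cKO, against 40.9 and 33.9 RPKM in Y1CTL. Psmb1 was the β gene with the lowest RNA-seq change, with 45.5 and 40.6 RPKM in Y1cKO, against 53.3 and 43.2 RPKM in Y1CTL (log2 fold change -0.16, TE change 0.12), and its groups overlapped. Psmb2 footprints were at 218 and 220 RPKM in Y1cKO, against 200 and 233 RPKM in Y1CTL. Psmb11, the β5 variant of the thymus, is not listed in the Ribo-seq tables and had at most 14 RNA-seq reads in a library, so that it was not tested.

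The 3 catalytic positions were compared subunit by subunit, because the immunosubunit and its constitutive counterpart compete for the same place. At β5, the chymotrypsin-like site, Psmb5 footprints were at 250 and 219 RPKM in Y1cKO, against 269 and 246 RPKM in Y1CTL, and Psmb8 footprints at 153 and 174 RPKM in Y1cKO, against 156 and 159 RPKM in Y1CTL. The groups overlapped for both genes. Psmb5 transcripts reached 50.0 and 56.9 RPKM in Y1cKO, against 42.7 and 38.1 RPKM in Y1CTL, with a TE change of -0.54 (unadjusted p = 0.0419, adjusted p = 0.563, limma). Psmb8 transcripts were at 23.6 and 17.8 RPKM in Y1cKO, against 18.0 and 22.5 RPKM in Y1CTL. At β2, the trypsin-like site, Psmb7 footprints were at 180 and 166 RPKM in Y1cKO, against 157 and 185 RPKM in Y1CTL, and those of Psmb10 at 92.6 and 96.2 RPKM in Y1cKO, against 91.6 and 95.5 RPKM in Y1CTL. The groups overlapped for both genes, and Psmb10 footprints barely varied over the 4 libraries. Psmb7 transcripts were at 43.1 and 41.8 RPKM in Y1cKO, against 37.5 and 37.2 RPKM in Y1CTL, and Psmb10 transcripts at 24.8 and 16.5 RPKM in Y1cKO, against 14.3 and 14.6 RPKM in Y1CTL. Psmb10 had the largest RNA-seq change of the immunosubunits, 0.47 ± 0.24 (SE, unadjusted p = 0.0979, limma), with a TE change of -0.46. At β1, the caspase-like site, Psmb6 footprints were at 172 and 150 RPKM in Y1cKO, against 164 and 160 RPKM in Y1CTL, and those of Psmb9 at 67.5 and 74.5 RPKM in Y1cKO, against 74.2 and 73.2 RPKM in Y1CTL. Psmb6 had the highest mean RPKM of the core transcripts, at 92.8 and 84.8 RPKM in Y1cKO, against 71.5 and 73.2 RPKM in Y1CTL, while Psmb9 was the least abundant of the 6, at 11.8 and 9.72 RPKM in Y1cKO, against 11.6 and 9.98 RPKM in Y1CTL.

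The immunosubunits made up more than 30% of the footprint density at the catalytic positions in every library. The immunosubunit share of the 3 positions was 34.2% and 39.2% in the Y1cKO Ribo-seq libraries, against 35.3% and 35.7% in the Y1CTL libraries. The Y1cKO values thus lay on both sides of Y1CTL. Over the 4 Ribo-seq libraries the share averaged 36.1% ± 2.16 (SD, n = 4). By position it was 31.0% ± 2.10 at β1, 35.4% ± 1.61 at β2 and 39.6% ± 3.31 at β5 (SD, n = 4). In RNA-seq the share was 24.5% and 19.3% in Y1cKO, against 22.4% and 24.1% in Y1CTL, with a mean of 22.6% ± 2.33 (SD, n = 4). The shares overlapped between the genotypes in both assays, and their difference was not tested, since an exact two-sided permutation of 2 libraries against 2 cannot give a p below 0.333. The assays use different lengths: with RNA-seq reads set per coding kilobase, as in Ribo-seq, the RNA-seq share was 31.3% ± 2.87 (SD, n = 4), and β1 had 19.9%, against 33.1% at β2 and 43.2% at β5. Markers of T and B cells, known for constitutive immunoproteasome expression, were present in the Ribo-seq libraries and in Y1CTL RNA-seq replicate 2. In the other RNA-seq libraries they were scarce, with summed T cell markers at 1.86 to 3.47 RPKM. The library with the highest T and B cell transcripts, Y1CTL RNA-seq replicate 2, had Psmb8, Psmb9 and Psmb10 at 22.5, 9.98 and 14.6 RPKM. These values lay within the range of the other RNA-seq libraries for all 3 genes. Its β5 share of 37.2% was the highest of the RNA-seq libraries. Its β1 and β2 shares, 12.0% and 28.2%, lay within the range of the others. The share of these cells in the levels was not tested.

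**Figure D2:**
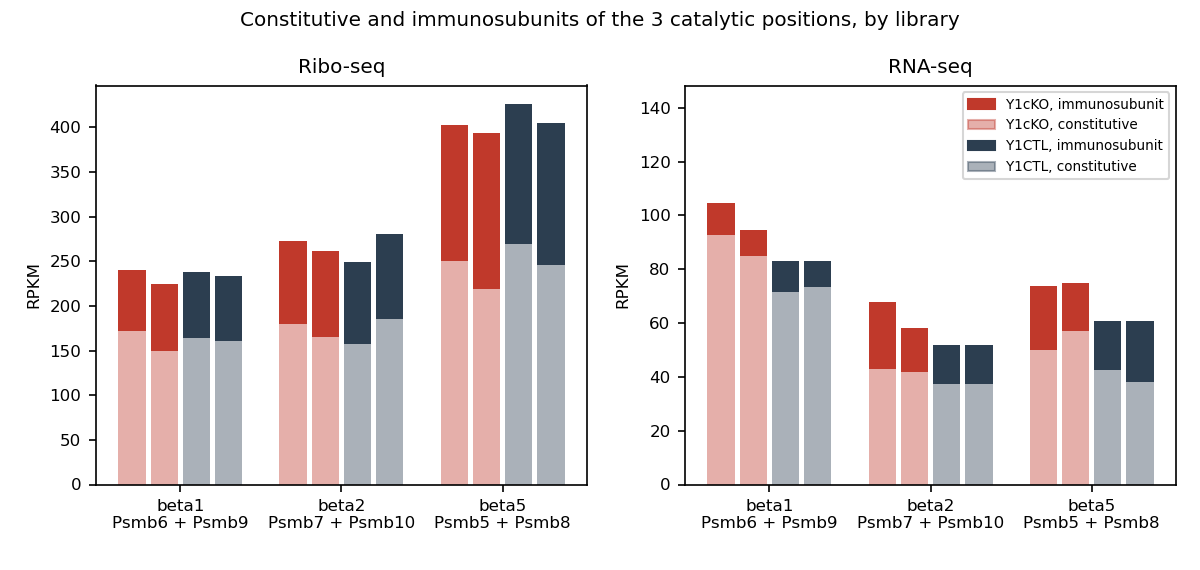
RPKM of the constitutive subunit (pale) and the immunosubunit (dark) at each catalytic position, stacked, with a bar per library, Y1cKO in red left of Y1CTL in slate. Immunosubunits form 34.2% to 39.2% of the 3 positions in Ribo-seq and 19.3% to 24.5% in RNA-seq, and the β5 stack is the tallest in Ribo-seq while β1 is the tallest in RNA-seq.

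With the immunosubunits added, the range of the β positions was narrower in Ribo-seq and wider in RNA-seq. Among the 7 constitutive β genes the highest footprint density was 2.82 and 3.30 times the lowest in Y1cKO, against 3.14 and 2.71 times in Y1CTL. With the immunosubunit added at β1, β2 and β5, it was 2.23 and 2.24 times in Y1cKO, against 2.47 and 1.86 times in Y1CTL, and so smaller in 4 of 4 libraries. In RNA-seq, the same addition widened the range, to between 2.30 and 2.74 times, from between 2.09 and 2.36 times over the 4 libraries. These directions follow from which genes stood at the ends. In Ribo-seq the lowest was Psmb6 or Psmb7, which receive an addition, and the highest was Psmb3, which receives none. In RNA-seq the highest was Psmb6, to which Psmb9 is added. The values are thus no test of how evenly the β subunits are supplied.

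The promoters of the catalytic pairs show which of the letters known for proteasome and interferon control stand near the start. They come from the RefSeq table for GRCm38.p6, which is not the build of the deposited tables, and each run gives the 120 bases just before the annotated start, on the strand of the gene. Capitals mark matches, on either strand, to the antioxidant response element core TGANNNNGC read by Nfe2l1 and Nfe2l2, the interferon-stimulated response element GAAANNGAA, the gamma-activated site TTCNNNGAA of interferon-γ signalling, and the CCAAT box. Psmb8 and Psmb9 lie in the MHC, next to the peptide transporter genes Tap1 and Tap2.
Psmb5, chr14:54617996-54618115, minus strand: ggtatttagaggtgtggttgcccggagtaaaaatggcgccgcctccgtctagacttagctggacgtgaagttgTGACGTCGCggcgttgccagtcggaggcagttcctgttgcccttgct
Psmb8, chr17:34198075-34198194, plus strand: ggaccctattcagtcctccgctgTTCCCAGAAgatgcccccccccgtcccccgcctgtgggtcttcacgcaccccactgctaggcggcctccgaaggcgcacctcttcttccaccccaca
Psmb6, chr11:70525237-70525356, plus strand: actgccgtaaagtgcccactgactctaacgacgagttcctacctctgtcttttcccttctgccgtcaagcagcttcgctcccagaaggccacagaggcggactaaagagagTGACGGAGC
Psmb9, chr17:34187331-34187450, minus strand: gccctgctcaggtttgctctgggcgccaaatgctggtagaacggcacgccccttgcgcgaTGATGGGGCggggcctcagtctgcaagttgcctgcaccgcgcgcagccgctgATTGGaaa
Psmb5, Psmb6 and Psmb9 hold the antioxidant response element core, Psmb8 the gamma-activated site, and the reverse CCAAT letters stand close to the Psmb9 start. In the 250 bases before the start, 40 of the 48 genes had an entry, with 43 promoters in all. The antioxidant response element core was in 17 of the 43 (39.5%, beside 35.2% of all 32851 promoters), the interferon-stimulated response element in 3 (6.98%, beside 7.13%), the gamma-activated site in 2 (4.65%, beside 7.02%) and the CCAAT box in 14 (32.6%, beside 33.9%). A match is a description of letters and not of binding. Among the 3 immunoproteasome genes the interferon-stimulated response element had 0 matches in this window, and Psmb10 had a match to none of the 4 motifs.

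The regulatory particle genes followed the core in RNA-seq. Of 17 genes, 15 were higher in Y1cKO transcripts (88.2%, beside 67.2% of all genes), with a median log2 fold change of 0.29. After scaling 13 were higher, with a median of 0.13. In footprints 15 were lower and 2 higher (11.8%, beside 51.5% of all genes), with a median of -0.057. Leaving out Y1CTL replicate 1 gave a footprint median of -0.10, leaving out Y1cKO replicate 2 gave -0.12, and leaving out Y1cKO replicate 1 gave -0.020. Without Y1CTL replicate 2 the RNA-seq median was 0.11, below the 0.17 over all genes. TE was lower for 16 of 17 (14 after scaling) and higher for 1 (5.88%, beside 34.7% of all genes). The TE median was -0.39, beside -0.17 over all genes, and -0.21 without Y1CTL replicate 2, beside -0.16 over all genes. Psmd6, a scaffold subunit of the lid, was the only member of the particle with an unadjusted p under 0.05. It had 31.5 and 29.5 RPKM in the Y1cKO RNA-seq libraries, against 18.0 and 24.0 RPKM in Y1CTL, and 122 and 143 RPKM in the Y1cKO Ribo-seq libraries, against 145 and 138 RPKM in the Y1CTL libraries. The transcript groups did not overlap and the footprint groups did. The log2 fold change was 0.54 ± 0.21 (SE, unadjusted p = 0.0403, adjusted p = 0.413, limma) in RNA-seq, and the TE change was -0.64 (unadjusted p = 0.0337, adjusted p = 0.563, limma).

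Psmd14, the deubiquitinase of the lid, had the lowest footprint change of all 46 genes. Its footprints were at 122 and 136 RPKM in Y1cKO, against 138 and 176 RPKM in Y1CTL (log2 fold change -0.27 ± 0.17, SE, unadjusted p = 0.152, limma), and its transcripts at 32.7 and 32.2 RPKM in Y1cKO, against 29.8 and 31.5 RPKM in Y1CTL. The footprint groups were close to overlapping, and Y1CTL replicate 2 was the high library. Psmd8, another lid subunit, had the highest footprint change of the particle, at 219 and 200 RPKM in Y1cKO, against 199 and 184 RPKM in Y1CTL (log2 fold change 0.13). Psmd11, which stabilises the assembled particle, had transcripts at 32.6 and 30.0 RPKM in Y1cKO, against 36.7 and 26.7 RPKM in Y1CTL, and its groups overlapped. The other lid genes, Psmd3, Psmd7, Psmd12 and Psmd13, had footprint means between 77.6 and 108 RPKM.

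The base carries the ATPase ring Psmc1 to Psmc6 and the large scaffolds Psmd1 and Psmd2, with the ubiquitin receptor Psmd4. All 6 ATPases were slightly lower in Y1cKO footprints, from -0.17 for Psmc2 to -0.042 for Psmc4, where 51.5% of all genes were higher. In RNA-seq 5 of 6 were higher (83.3%, beside 67.2% of all genes). Psmc1 had 44.2 and 52.6 RPKM in the Y1cKO RNA-seq libraries, against 42.2 and 29.8 RPKM in Y1CTL, the highest change of the ring. Psmc4 had 44.5 and 46.6 RPKM in the Y1cKO RNA-seq libraries, against 50.2 and 48.1 RPKM in Y1CTL (log2 fold change -0.11, TE change 0.067), the lowest change of the ring. Psmc2 footprints were at 82.9 and 97.6 RPKM in Y1cKO, against 91.1 and 112 RPKM in Y1CTL, and overlapped. Those of Psmc6 were at 147 and 160 RPKM in Y1cKO, against 174 and 165 RPKM in Y1CTL, and did not. Psmd1 was at 67.3 and 73.0 RPKM in the Y1cKO Ribo-seq libraries, against 72.8 and 83.2 RPKM in Y1CTL, and its transcripts at 43.7 and 41.1 RPKM in Y1cKO, against 39.1 and 26.3 RPKM in Y1CTL. Psmd4 transcripts, at 57.6 and 65.5 RPKM in Y1cKO, against 63.2 and 36.6 RPKM in Y1CTL, show the spread within Y1CTL. Y1CTL replicate 2 was the low library for Psmc1, Psmd1 and Psmd4 alike.

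The activators bind the ends of the core in place of the regulatory particle. Psme1 and Psme2 form the interferon-inducible PA28αβ ring, Psme3 the nuclear PA28γ ring, Psme4 is PA200, and Psmf1 (PI31) binds the core and was first described as an inhibitor. In RNA-seq 3 of 5 were lower in Y1cKO and 2 higher (40%, beside 67.2% of all genes), with a median of -0.080. After scaling all 5 were lower, with a median of -0.24. With Y1CTL replicate 1 left out the unscaled median was -0.19, with Y1cKO replicate 1 left out it was -0.053, and a difference from the other classes was not tested. Psme2 had 20.3 and 18.3 RPKM in the Y1cKO RNA-seq libraries, against 25.5 and 22.8 RPKM in the Y1CTL libraries (log2 fold change -0.31 ± 0.18, SE, unadjusted p = 0.130, limma). Its footprints were at 61.3 and 70.1 RPKM in Y1cKO, against 61.6 and 53.0 RPKM in Y1CTL, the highest footprint change of all 46 genes at 0.20. The transcript groups did not overlap, the footprint groups did, and the TE change of 0.51 had an unadjusted p of 0.0512 and an adjusted p of 0.563 (limma). Psme1 had 346 and 385 RPKM in the Y1cKO Ribo-seq libraries, against 388 and 359 RPKM in Y1CTL. Although both proteins form a single ring, Psme1 footprints were 5.64 and 5.49 times as dense as Psme2 footprints in Y1cKO, against 6.29 and 6.77 times in Y1CTL. In RNA-seq the ratio was 2.90 and 3.35 in Y1cKO, against 2.27 and 3.05 in Y1CTL. The ratio of footprints was thus lower in both Y1cKO libraries, whereas the RNA-seq ratios overlapped. Psme2b, a retrogene copy of Psme2, can share reads with it. Psme3 had 110 and 108 RPKM in the Y1cKO Ribo-seq libraries, against 118 and 102 RPKM in Y1CTL. Psme4 footprints were few, at 15.4 and 16.8 RPKM in Y1cKO, against 19.5 and 16.9 RPKM in Y1CTL (log2 fold change -0.17), and its TE change was -0.22. Psmf1 transcripts were at 6.43 and 7.10 RPKM in Y1cKO, against 6.17 and 6.88 RPKM in Y1CTL (log2 fold change 0.049, and -0.11 after scaling).

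The assembly factors chaperone the core (Psmg1 to Psmg4) and the base (Psmd5, Psmd9 and Psmd10) and leave the finished particle. They were the least abundant class, with mean footprints from 19.5 RPKM for Psmg2 to 48.0 RPKM for Psmd9. Their transcripts were low, and the RNA-seq changes wide. Psmg4 had 6.93 and 5.59 RPKM in the Y1cKO RNA-seq libraries, against 0.455 and 6.53 RPKM in Y1CTL, where 0.455 RPKM is 1 read. The log2 fold change of 1.38 ± 0.88 (SE) rests on that library and was -0.064 without it. With Y1CTL replicate 2 left out instead it was 2.82, with an adjusted p of 0.0154 (limma), but the Y1CTL side is then the single library with 1 read, assumed to vary like Y1cKO. Psmg4 footprints were at 20.2 and 24.0 RPKM in Y1cKO, against 17.4 and 22.8 RPKM in Y1CTL, and overlapped (log2 fold change 0.14). Psmg3 transcripts were at 4.45 and 3.72 RPKM in Y1cKO, against 6.87 and 3.19 RPKM in Y1CTL (log2 fold change -0.19). Psmd9 transcripts were at 6.24 and 3.59 RPKM in Y1cKO, against 3.31 and 2.87 RPKM in Y1CTL, and did not overlap (log2 fold change 0.55, unadjusted p = 0.132, limma). Psmd5 footprints, at 28.0 and 32.6 RPKM in Y1cKO, against 32.8 and 37.8 RPKM in Y1CTL, had the lowest change of the class (log2 fold change -0.22), with a TE change of -0.56. Psmg1 was steady in both assays, with 43.0 and 41.4 RPKM in the Y1cKO Ribo-seq libraries, against 41.6 and 38.5 RPKM in Y1CTL, and 11.6 and 12.1 RPKM in the Y1cKO RNA-seq libraries, against 11.4 and 11.4 RPKM in Y1CTL.

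The genes that match by symbol only had low levels. Psmc3ip, known as Hop2, acts in meiotic recombination, and it had 3.23 and 2.55 RPKM in the Y1cKO Ribo-seq libraries, against 3.63 and 2.50 RPKM in Y1CTL. Its log2 fold changes were -0.061 ± 0.25 in Ribo-seq, 0.26 ± 0.51 in RNA-seq and -0.32 ± 0.50 in TE (SE). They rest on few reads, 2 to 17 per library in RNA-seq. Psme2b had 0 Ribo-seq reads in 3 libraries and 1 in Y1CTL replicate 2, and its transcripts were at 0.783 and 0.727 RPKM in Y1cKO, against 1.21 and 3.61 RPKM in Y1CTL.

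The core lay above the regulatory particle in every library. The 14 constitutive core genes had mean footprints from 124 RPKM (Psma5) to 477 RPKM (Psmb3), with a median of 214 RPKM, and the 17 regulatory particle genes from 74.1 RPKM (Psmd1) to 201 RPKM (Psmd8), with a median of 113 RPKM. The median of the core was 1.97 and 1.88 times that of the regulatory particle in the Y1cKO Ribo-seq libraries, against 1.88 and 1.89 times in Y1CTL. In RNA-seq this ratio was 1.25 and 1.17 in Y1cKO, against 1.29 and 1.26 in Y1CTL. The 48 genes took 0.602% and 0.623% of the Ribo-seq reads in Y1cKO, against 0.641% and 0.639% in Y1CTL, and 0.262% and 0.258% of the RNA-seq reads in Y1cKO, against 0.241% and 0.213% in Y1CTL. The footprint shares were thus lower in both Y1cKO libraries and the transcript shares higher. Several core genes have pseudogenes, among them Psma5, Psmb5, Psmb6 and Psmb7, and how shared reads were counted is not given in the sources used here.

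**Figure D3:**
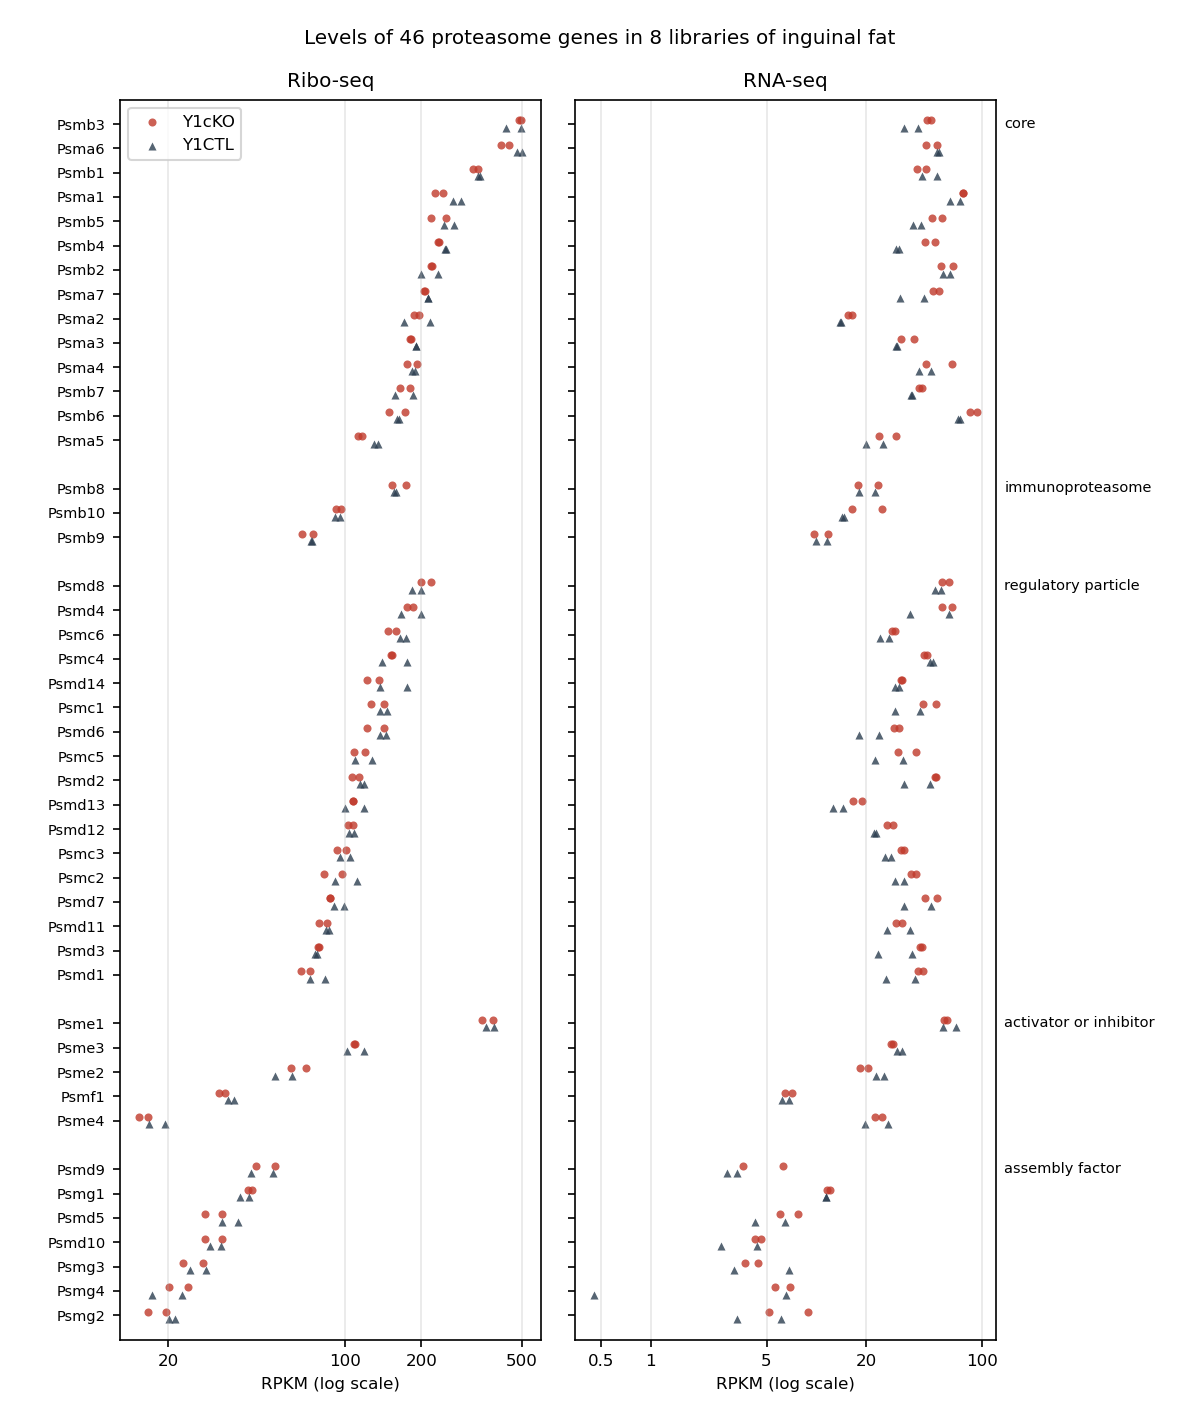
RPKM on a log axis of 46 proteasome genes in the 4 Ribo-seq (left) and 4 RNA-seq (right) libraries, by class and by mean Ribo-seq level, with Y1cKO as red circles and Y1CTL as dark triangles. Footprint densities of the core lie between 113 and 500 RPKM and those of the assembly factors between 16.7 and 52.9 RPKM, with little distance between genotypes; the isolated RNA-seq triangle at 0.455 RPKM is Psmg4 in Y1CTL replicate 1.

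Most proteasome genes varied less from library to library than genes averaging 10 RPKM or more did as a set. That set was not matched by level, and footprint medians of the core and regulatory particle, 214 and 113 RPKM, lie far above 10 RPKM. The less abundant assembly factors had a median SD of 0.15 in Ribo-seq and 0.43 in RNA-seq. Whether the low spread goes beyond the level of the genes was not tested. The SD of log2 Ribo-seq values over the 4 libraries had a median of 0.10 among the 46 genes, beside 0.15 among all 6721 genes averaging 10 RPKM or more, and 40 of the 46 lay below the median of those genes. Psmd14 had the largest SD, 0.22. In RNA-seq the median was 0.20, beside 0.25 among 4539 genes with at least 10 RPKM, and of the 39 proteasome genes at that level 26 lay below the median. Within Y1CTL the beige and brown adipocyte markers were 3.34-fold denser in Ribo-seq replicate 1 than in replicate 2 by their median, whereas the proteasome median was 1.00-fold, and within Y1cKO the fold was 1.27 for the markers and 0.954 for the proteasome genes. Over all genes the median fold was 0.991 within Y1CTL and 0.950 within Y1cKO, so the proteasome values lay near those of all genes. Whether proteasome footprints vary with the beige marker level was not tested. In RNA-seq, the beige markers were 3.73-fold higher in Y1cKO replicate 2 than in replicate 1 by the sample titles. The fold was 0.944 for the proteasome genes, beside 0.936 over all genes. The column names number the Y1cKO RNA-seq libraries the other way round, which would turn these ratios over. Within Y1CTL RNA-seq the beige markers were also higher in replicate 2 by their median. Here the proteasome genes departed from all genes, with a fold of 0.912 for replicate 2 over replicate 1, beside 0.993 over all genes.

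**Figure D4:**
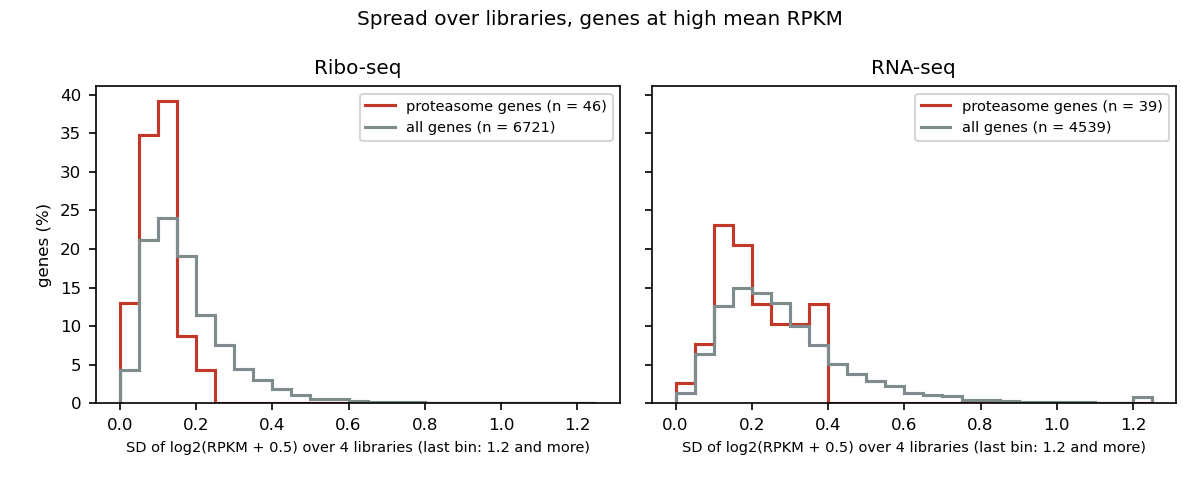
SD of log2(RPKM + 0.5) over the 4 libraries of each assay (horizontal axis, in log2 units) for genes averaging 10 RPKM or more, as a percentage of the genes (vertical axis), with proteasome genes in red and all genes in grey. The proteasome curve is shifted to low SD in Ribo-seq, with medians of 0.10 and 0.15, and ends at 0.22, while in RNA-seq the curves overlap more.

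The ratio of Ribo-seq to RNA-seq values was high for nearly all members. The genes they are set beside were not matched by level. Whether the high ratio goes beyond the level of the members was not tested. The libraries of the assays also differed in cell markers. Summed T cell markers reached 425 to 559 RPKM in Ribo-seq, against 1.86 to 137 RPKM in RNA-seq. For genes expressed in immune cells the ratio is therefore no direct measure of ribosome density per transcript. The log2 ratio of mean Ribo-seq to mean RNA-seq value had a median of 2.07, beside 0.91 over 11792 genes, and 45 of the 46 exceeded that value. With RNA-seq reads set per coding kilobase the medians were 1.48 and -0.038, and again 45 of 46 exceeded the median of all genes. Psme4 was the exception in both, at -0.45 and -0.67. Psmb3 had the highest ratio per coding kilobase, 3.15, and Psma2 the highest as deposited, 3.65. Psma2 was at 1.63 per coding kilobase, as its listed transcript of 2911 bases holds a coding sequence of 702 bases. Within the core, Psmb6 had the lowest ratio as deposited, 1.00. Across the 46 genes, log2 RNA-seq and log2 Ribo-seq means had a Pearson's r of 0.79 and a Spearman's rho of 0.76 (n = 46 genes), as a description of genes that share libraries and a length scale.

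Among 13 proteasome partners, the ubiquitin receptor Adrm1 had the largest RNA-seq change. Adrm1 transcripts were at 15.6 and 12.5 RPKM in Y1cKO, against 4.61 and 8.66 RPKM in Y1CTL, and its footprints at 9.90 and 9.15 RPKM in Y1cKO, against 10.1 and 7.78 RPKM in Y1CTL. The transcript groups did not overlap (log2 fold change 1.08, unadjusted p = 0.0162, adjusted p = 0.402, limma), while the footprint groups did. Of the 13 partners, 3 were higher in RNA-seq at an unadjusted p under 0.05, Adrm1, the deubiquitinase Uchl5 and the proteasome-binding protein Zfand5, beside 10.0% of all genes. None passed that p in Ribo-seq, beside 1.62% of all genes higher and 1.13% lower. The core chaperone Pomp had 317 and 307 RPKM in the Y1cKO Ribo-seq libraries, against 336 and 389 RPKM in Y1CTL.

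Of the 10 genes around Nfe2l1, the transcription factor of the proteasome recovery response, none had an unadjusted p under 0.05 in Ribo-seq (8 tested) or RNA-seq (9 tested), beside 1.62% of all genes higher and 1.13% lower in Ribo-seq and 10.0% higher and 1.79% lower in RNA-seq. Nfe2l1 itself was at 74.7 and 74.9 RPKM in the Y1cKO Ribo-seq libraries, against 77.9 and 75.5 RPKM in Y1CTL, and at 97.4 and 104 RPKM in the Y1cKO RNA-seq libraries, against 101 and 92.4 RPKM in Y1CTL. The footprints of Nfe2l1 barely varied, and its transcript groups overlapped. Among genes of ubiquitin supply and substrate delivery, Ubb, a polyubiquitin gene, had 108 and 119 RPKM in the Y1cKO RNA-seq libraries, against 43.7 and 59.3 RPKM in Y1CTL (log2 fold change 1.15, unadjusted p = 0.00213, adjusted p = 0.401, limma). The transcript groups of Ubb did not overlap, while its footprints, at 742 and 753 RPKM in Y1cKO, against 684 and 812 RPKM in Y1CTL, did. Ubb encodes repeats of ubiquitin, so its reads may be shared with near-identical sequence. Ubqln2, a shuttle that carries substrates to the proteasome, had 14.0 and 13.2 RPKM in the Y1cKO RNA-seq libraries, against 7.40 and 7.53 RPKM in Y1CTL, and footprints of 51.6 and 49.9 RPKM in Y1cKO, against 49.6 and 53.5 RPKM in Y1CTL.

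In the list of 13 genes of interferon-γ signalling and peptide supply, 1 was higher in RNA-seq at an unadjusted p under 0.05 (Tapbp, which bridges the peptide transporter and MHC class I), beside 10.0% of all genes, and 0 passed that p in Ribo-seq, beside 1.62% of all genes higher and 1.13% lower. Tap1, next to Psmb9, was at 39.2 and 42.8 RPKM in the Y1cKO Ribo-seq libraries, against 38.7 and 37.6 RPKM in Y1CTL. Its transcripts were at 15.3 and 11.5 RPKM in Y1cKO, against 15.8 and 19.5 RPKM in Y1CTL (log2 fold change -0.40). Tap1 thus lay higher in both Y1cKO Ribo-seq libraries and lower in both Y1cKO RNA-seq libraries, and passed no test.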

How the data were processed

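The authors made RNA-seq libraries from polyadenylated RNA and Ribo-seq libraries from RNase I footprints, mapped reads with HISAT2 2.2.1 to mm8 (submitters' processing notes, which also name DESeq2) and deposited RPKM values per gene and library, with the transcript length and the coding start and end. The counter, annotation release and strandedness are not stated in the sources available. Replicates 1 and 2 of Y1cKO RNA-seq follow the sample titles, whereas the headers of their value columns exchange these numbers. RPKM runs over the transcript in RNA-seq and the coding sequence in Ribo-seq. Every value (100%) corresponded to a whole number of reads to within 0.01 read, which gave depth and read numbers. Genes absent from a Ribo-seq table were set to 0.

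Values were tested as log2(RPKM + 0.5) in R 4.3.3 by limma 3.58.1, whose variance prior followed the mean level, for genes averaging 0.5 RPKM or more, with Benjamini-Hochberg adjustment over all genes tested. Fold changes on this scale understate the changes of low genes. TE was the interaction of assay and genotype over 8 libraries. The code was tested on simulated data. Replicates differed beyond counting noise (chi-square over its degrees of freedom 12.3 to 36.2), so none was counted as a copy.

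Members and lists were chosen with earlier results of these data known. Values in each library are given for the 6 catalytic genes and, in each class, for the genes with the highest or lowest change or the smallest p in a comparison, with up to 4 genes of each pathway list. Some genes of those lists are not reported here. Alternatives covered the pseudocount (0.1 and 1), the filter, scaling, voom on reads, a replicate block and each replicate left out. RNA-seq per coding kilobase, overlap after scaling and a replicate block crossed or numbered by the column names were added after the data were seen. Tables and figures used Python 3.11.15, pandas 2.3.3 and matplotlib 3.10.9.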

Additional observations from a re-analysis of the deposited data

How the results depend on the processing

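With 2 libraries per group only large changes could pass a test, and the Y1CTL RNA-seq libraries are the shallowest. Proteasome genes with an adjusted p under 0.05 (limma) numbered 0 in Ribo-seq, RNA-seq and TE under every alternative run, except that RNA-seq gave 0 to 1 with a replicate left out, the 1 being Psmg4 without Y1CTL replicate 2. Over all genes, calls numbered 51 in Ribo-seq, 665 in RNA-seq and 963 in TE without Y1CTL replicate 1, 19, 52 and 0 without Y1CTL replicate 2, 21 in Ribo-seq with no filter, and 0 to 2 under the others. The RNA-seq proteasome median of 0.27 was 0.11 after scaling and 0.12 to 0.27 with a replicate left out; the TE median of -0.33 was -0.17 after scaling and -0.35 to -0.20 with a replicate left out. The RNA-seq immunoproteasome share of 22.6% was 31.3% per coding kilobase and 31.7% as a share of reads, as the transcripts differ in length beyond the coding sequence. Psmf1 turned to -0.11 in RNA-seq after scaling. With a replicate left out, signs also turned for genes of small change or few reads, with ranges in Ribo-seq of -0.013 to 0.18 for Psmb3, -0.042 to 0.14 for Psmb8, -0.12 to 0.015 for Psmb9 and -0.049 to 0.34 for Psmg4. In RNA-seq they were -0.14 to 0.13 for Psmb9, -0.024 to 0.12 for Psmf1, -0.69 to 0.31 for Psmg3 and -0.064 to 2.82 for Psmg4. In TE they were -0.051 to 0.28 for Psmb1, -0.27 to 0.31 for Psmb8, -0.067 to 0.20 for Psmc4, -0.27 to 0.52 for Psmg3 and -2.48 to 0.014 for Psmg4. With the replicate number as a block, 0 proteasome genes were called in each comparison and the medians stayed at -0.044, 0.27 and -0.33. By the titles, the deviations of an RNA-seq library and the Ribo-seq library with its number correlated at -0.24 in Y1cKO and -0.14 in Y1CTL. By the column names the Y1cKO value is 0.24, so the numbers give no settled pairing. With the numbers crossed in TE, or taken from the column names in RNA-seq and TE (both chosen after seeing the data), 0 proteasome genes were called.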
